A study of Homo sapiens with 17 samples.

Results

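Messenger RNA of the actin and tubulin cytoskeleton was followed through PC3M, a metastatic variant of the human prostate cancer cell line PC3, under 2 kinds of protein-damaging stress. The genes were chosen by symbol alone, with no measured value: the α-, β- and γ-tubulins whose symbol carries a digit, the actins ACTB and ACTG1, the 7 ARPC genes and ACTR2 and ACTR3 of the Arp2/3 complex, the α-actinins ACTN1 and ACTN4, tropomyosins TPM1 to TPM4, the myosin light chains MYL6, MYL9, MYL12A and MYL12B, the myosin heavy chains MYH9 and MYH10, CFL1, PFN1, TAGLN and TAGLN2. This gave 40 genes found in both tables of the study, of 14085 genes in the table of the MG132 experiment and 13616 in the table of the heat shock experiment. TUBA4B also matched by symbol but has a row in the MG132 table only, so 41 genes are counted there. Of these, 35 reached the level needed for testing in each table.

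The study measured 17 libraries of 3'-end tags (QuantSeq FWD, 1 tag per transcript), so levels of different genes can be compared without correction for length. In the MG132 experiment, cells carrying a non-targeting siRNA (siNT) for 72 h received the solvent DMSO or 2.5 µM of the proteasome inhibitor MG132 for 4 h. Cells carrying an siRNA against JMJD6 (siJMJD6) for 72 h, and HSF1 knockout (HSF1 KO) cells, received MG132 alone. Each of these 4 groups had 2 libraries. In the heat shock experiment, siNT cells were left at 37 °C (basal) or held at 42 °C for 1 h with 2 h of recovery, and siJMJD6 cells were given the same heat shock, with 3 libraries in each of the 3 groups. By its title, the study concerned a circuit between HSF1, the main transcription factor of the heat shock response, JMJD6, a nuclear oxygenase, and chaperones. No unstressed siJMJD6 or HSF1 KO cells were analysed here, so a difference made by stress and one present before it cannot be told apart. The submitters' text speaks of KO cell lines but does not say whether the knockout libraries, lettered A and B and here called replicates 1 and 2, come from separate clones, or whether these cells were also transfected. The labels do not say either that replicates were grown as separate cultures, so every p-value here reflects spread among libraries that may be technical in origin.

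Actin and tubulin build the 2 polymer systems that shape a cell, carry its cargo and divide it. Microtubules assemble from dimers of α- and β-tubulin on templates of γ-tubulin, and cells hold the amount of tubulin mRNA in balance by degrading it during translation when free dimers are in excess, a process in which TTC5 recognises the first residues of the new chain. Actin filaments are branched by the Arp2/3 complex, severed by cofilin (CFL1), fed with monomers by profilin (PFN1), coated by tropomyosins, crosslinked by α-actinins and pulled by non-muscle myosin. Many actin-related genes are transcribed by SRF with its MRTF partners, which read the pool of free actin monomer.

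The targeted genes fitted their labels. JMJD6, given in normalised counts, was at 167 and 129.8 in the siNT libraries under MG132 and 26.6 and 16.6 with siJMJD6, and at 209, 210.2 and 253 after heat shock against 9.72, 7.66 and 14.6 with siJMJD6. HSF1 was at 285 and 175 in the HSF1 KO libraries and 1687 and 1884 in siNT cells under MG132. Totals of normalised counts ranged from 1505826 to 1819640 per library. Within a group of the MG132 table, libraries correlated at 0.919 to 0.953 across tested genes, and in the heat shock table at 0.967 to 0.977. All 6 epithelial and all 5 mesenchymal markers had a mean of at least 10 normalised counts in both tables, whereas the smooth muscle marker ACTA2, a close relative of the actins studied here, averaged 1.23 in the MG132 and 1.59 in the heat shock table. The summed level of the fibroblast genes, mainly COL1A2 (1 of 5 listed genes in the MG132 table and 2 of 6 in the other had a mean of at least 10), was 109.7 to 253 in siNT cells and 35.2 to 55.9 in siJMJD6 cells under MG132, and 270 to 311 against 115 to 165 after heat shock; its part in the results was not tested.

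Close pairs of tubulin genes differ little in coding sequence, and the starts of some genes are given below. With siJMJD6, TUBA1A, TUBA4A and TUBB3 rose and TUBB2B fell. The starts are the first 30 coding bases, read from GENCODE v29 transcripts on GRCh38, 5′ to 3′. Capitals mark the first 4 codons, the stretch read in the control of tubulin mRNA by its own protein.
TUBA1A coding start: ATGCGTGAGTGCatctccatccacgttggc
TUBA4A coding start: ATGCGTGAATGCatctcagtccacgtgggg
TUBB2B coding start: ATGCGTGAGATCgtgcacatccaggcgggc
TUBB3 coding start: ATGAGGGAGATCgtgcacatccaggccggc
The first 30 bases of TUBA1B, which fell, and of TUBA1C are the same as those of TUBA1A. Over the whole coding sequence TUBA1A and TUBA1B were 97.2% identical, and their transcripts shared an unbroken run of 84 bases within the last 400, where 3'-end tags fall. The sources used here do not give how tags that match both genes were counted, so the split between TUBA1A and TUBA1B is uncertain in part. TUBA4A was 84.4% identical to TUBA1A and shared no run above 11 bases in that window, and TUBA1C shared 11 with TUBA1A and 9 with TUBA1B.

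Few of these genes were called with stress alone, 0 of 35 with MG132 and 1 of 35 after heat shock, as of all tested genes (0.266% and 4.09%), and more were called with siJMJD6. A gene was called where limma's test gave an adjusted p under 0.05 over all genes of its table; differences are of log2(normalised count + 1), given ± SE. Under siJMJD6 and MG132, 11 of 35 genes were called (31.4%), 6 higher and 5 lower, where 13.6% of all tested genes were called, 6.22% higher and 7.35% lower. After heat shock, siJMJD6 cells had 21 of 35 called (60%), 14 higher and 7 lower, where 46.4% of all genes were called, 21.4% higher and 24.9% lower. Unadjusted p values were under 0.05 for 15 and 24 of the 35 genes, against 28.3% and 52.6% of all, and the groups did not overlap for 24 (68.6%) and 23 (65.7%), against 53.1% and 54% of all. The median over the 35 genes was 0.09 under MG132 and 0.19 after heat shock, and over all tested genes -0.05 and -0.03. Differences were above 0 for 18 of the 35 genes under MG132 and for 24 after heat shock. The genes thus leaned upward after heat shock, while single genes moved far in both directions in both tables. In bulk samples such as these, fewer cells with a transcript and less of it per cell cannot be told apart.

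**Figure D1:**
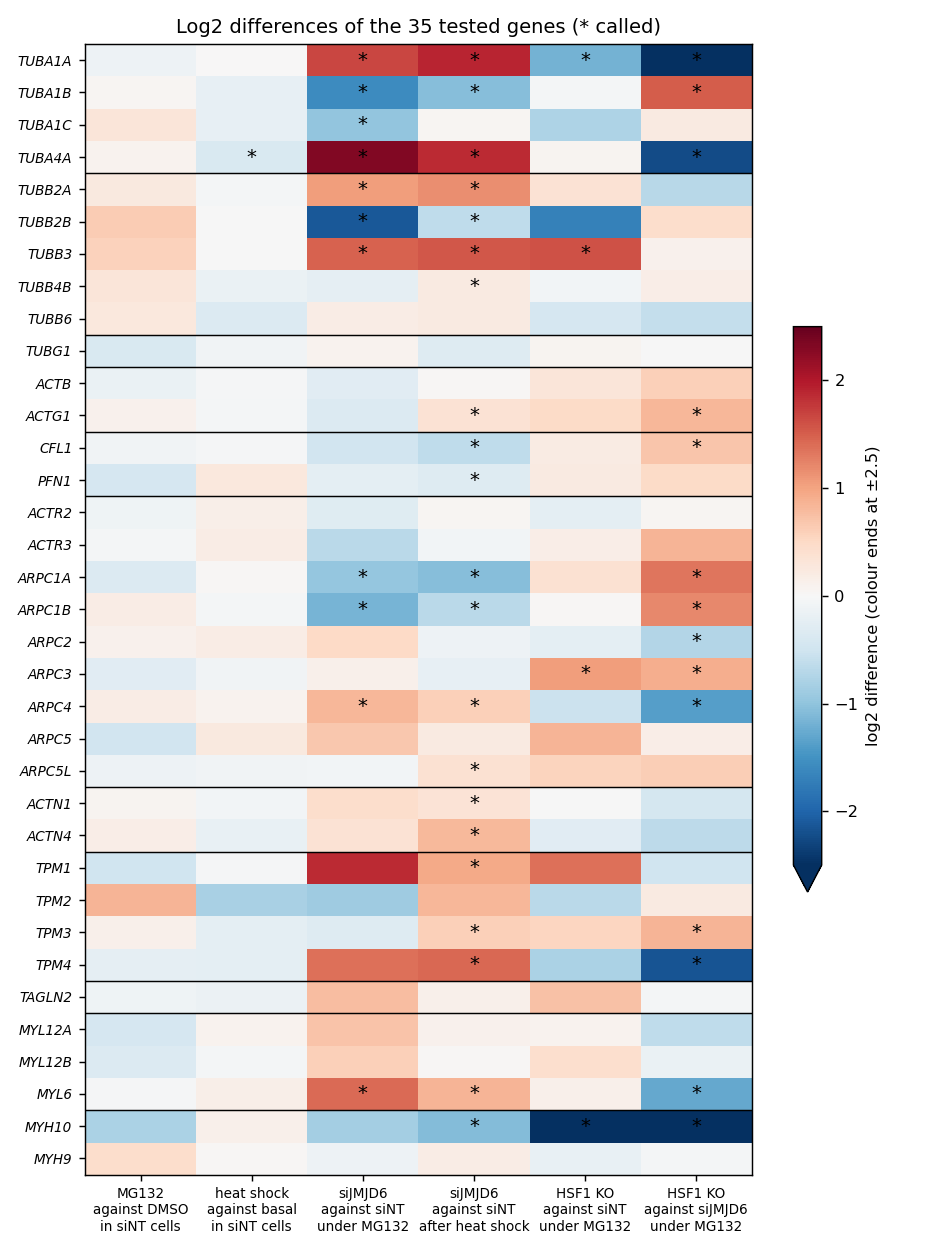
Log2 differences of the 35 tested cytoskeleton genes (rows, grouped by class) in the 6 comparisons (columns), with an asterisk where the gene was called; red is higher and blue lower in the group named first. The stress columns hold 0 and 1 asterisks, the siJMJD6 columns 11 and 21, and the HSF1 KO columns 4 and 14.

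In siNT cells, 4 h of MG132 left no cytoskeleton gene called, and none of the 35 had even an unadjusted p under 0.05, where 0.266% of all tested genes were called (0.205% higher and 0.0614% lower) and 5.66% had such a p. The groups did not overlap for 11 of 35 genes (31.4%) and for 36.3% of all. The smallest p values belonged to TUBB3, ARPC1A and TUBB4B. TUBB3 was at 58.5 and 42.8 with DMSO and 66.0 and 86.0 with MG132 (0.58 ± 0.28, adjusted p = 0.904), and ARPC1A at 486 and 487 with DMSO and 383 and 387 with MG132 (-0.34 ± 0.24, adjusted p = 0.938). For the 5 genes named in every comparison the differences were -0.18 ± 0.23 for ACTB, 0.10 ± 0.23 for ACTG1, 0.04 ± 0.23 for TUBA1B, -0.08 ± 0.22 for CFL1 and -0.42 ± 0.42 for PFN1, with adjusted p from 0.971 to 0.994. With 2 libraries a group the median SE over all genes was 0.394, and differences several times as large were left uncalled in this comparison, LIMA1 at -1.09 ± 0.35 (adjusted p = 0.558) among them.

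After heat shock TUBA4A, an α-tubulin, was the only 1 of the 35 called (2.86%), where 4.09% of all tested genes were called, 2.86% higher and 1.23% lower. Groups did not overlap for 3 of 35 genes (8.57%) and for 19.8% of all. TUBA4A stood at 888, 955 and 903 in basal cells and 636, 674 and 813 after heat shock, with the groups apart, and fell by 0.38 ± 0.08 on the log2 scale (adjusted p = 0.0027). Unadjusted p values were under 0.05 for 9 of 35 members, 8 of them lower, against 15.1% of all tested genes. Among the named genes not called, ACTB differed by -0.02 ± 0.08, ACTG1 by -0.05 ± 0.08, TUBA1B by -0.21 ± 0.09, CFL1 by -0.02 ± 0.07 and PFN1 by 0.26 ± 0.09 (adjusted p 0.119 for PFN1 and at least 0.274 for the others). The count of 1 depended on single libraries: it was 4 without basal replicate 3 and 3 without heat shock replicate 3, where TUBA1B was called at -0.38.

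The α-tubulins held the largest rises with siJMJD6 among the called genes of both tables, while other α-tubulins fell. In siJMJD6 cells the minor isotypes TUBA4A and TUBA1A rose and the main isotype TUBA1B fell, under both stresses. TUBA4A (chr2:219249711-219278170, minus strand, GRCh38, like all coordinates here) was at 641 and 604 normalised counts in siNT and 3455 and 2792 in siJMJD6 libraries under MG132, and at 636, 674 and 813 against 2531, 2491 and 2644 after heat shock. Every siJMJD6 library lay far above every siNT library. The difference was 2.32 ± 0.22 under MG132 (4.99-fold, adjusted p = 8.91e-05) and 1.86 ± 0.08 after heat shock (3.63-fold, adjusted p = 1.6e-19). HSF1 KO libraries, at 637 and 672, lay near the siNT values (0.07 ± 0.22, adjusted p = 0.936) and well below siJMJD6 (-2.25 ± 0.22, adjusted p = 5.39e-05). STK16, whose gene overlaps the end of TUBA4A on the other strand, had 52.8 in siNT and 61.6 in siJMJD6 cells under MG132 and was not called (adjusted p = 0.894).

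TUBA1A, TUBA1B and TUBA1C lie near one another on chromosome 12, at chr12:49184796-49189324 (minus), chr12:49127782-49131397 (minus) and chr12:49188736-49274603 (plus). TUBA1A was at 371 and 464 in siNT, 1204 and 1436 in siJMJD6 and 147 and 229 in HSF1 KO libraries under MG132. The 3 groups did not overlap, with siJMJD6 highest and the knockout lowest. TUBA1A rose with siJMJD6 by 1.66 ± 0.26 (adjusted p = 0.00181), was lower in HSF1 KO than in siNT cells by a log2 difference of -1.17 ± 0.26 (adjusted p = 0.0478), and differed between HSF1 KO and siJMJD6 by -2.83 ± 0.26 (adjusted p = 3.18e-05). The call of HSF1 KO against siNT was lost in 8 of 13 alternative fits, among them those without any 1 of the DMSO, siNT MG132 or HSF1 KO libraries. After heat shock it went from 355, 399.7 and 558 to 1438, 1665 and 1717, again without overlap (1.90 ± 0.11, 3.72-fold, adjusted p = 7.05e-16).

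TUBA1B, the most abundant of these genes in most libraries, moved the other way. Its values were 12732 and 12991 in siNT and 4083 and 4641 in siJMJD6 cells under MG132, and 13684 and 11299 in HSF1 KO cells. The siJMJD6 libraries were the low ones and the knockout overlapped siNT. TUBA1B fell by 1.56 ± 0.23 on the log2 scale with siJMJD6 (adjusted p = 0.00123), differed by -0.05 ± 0.23 in HSF1 KO against siNT (adjusted p = 0.959) and was higher in HSF1 KO than in siJMJD6 cells by 1.51 ± 0.23 (adjusted p = 0.000919). After heat shock it was at 6977, 8477 and 11002 in siNT and 3845, 4312 and 4319 in siJMJD6 libraries, apart from each other, and fell by 1.06 ± 0.09 (adjusted p = 1.68e-11). TUBA1C, the other main isotype, was at 12270.1 and 17556 in siNT against 7622 and 7186 with siJMJD6 under MG132 (-0.99 ± 0.25, adjusted p = 0.0232) and at 6270.3, 7663 and 8024 in siNT against 7099, 7866 and 7695 with siJMJD6 after heat shock (0.05 ± 0.07, adjusted p = 0.587). It was called in the MG132 table and not in the other, a difference that was not tested, and the call was lost without siNT MG132 replicate 2. TUBA8 and TUBA4B stayed at or below 3.81 normalised counts in every library and were not tested.

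**Figure D2:**
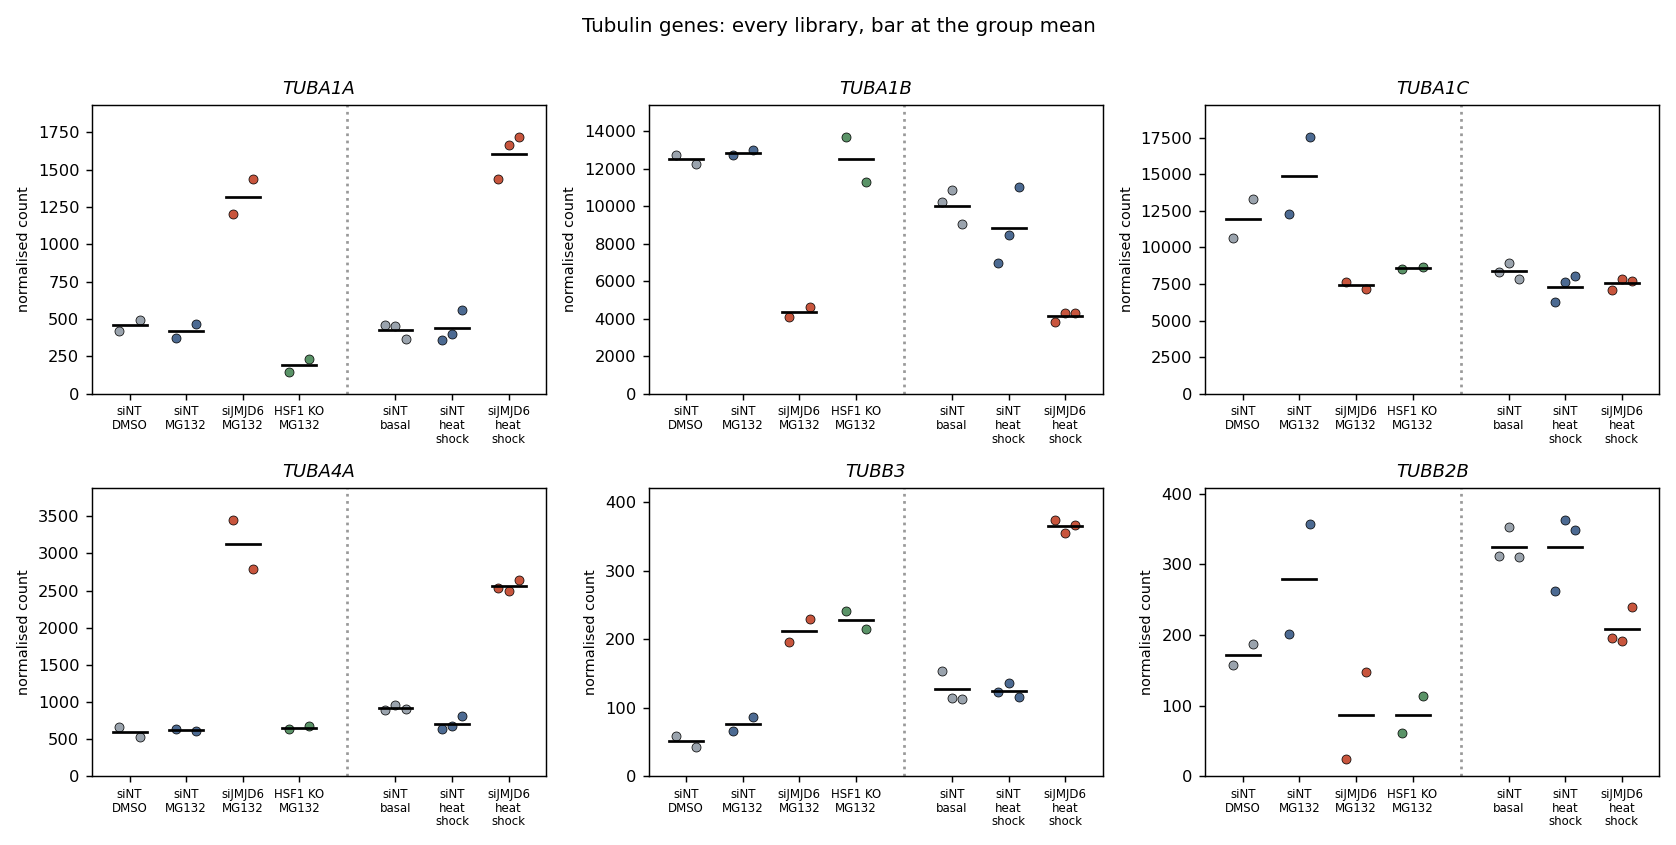
Normalised counts (y axis, from 0, scaled per gene) of 4 α-tubulin and 2 β-tubulin genes in every library (points) with the group mean (bar); the dotted line separates the MG132 table, left, from the heat shock table, right. TUBA4A, TUBA1A and TUBB3 are high and TUBA1B is low in both siJMJD6 groups, and TUBB3 is also high and TUBA1A low in HSF1 KO libraries.

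As a share of all α-tubulin counts, TUBA1B went from 45.0% ± 5.56 in siNT to 26.9% ± 2.80 in siJMJD6 cells under MG132 (SD, n = 2), and from 50.7% ± 2.78 to 26.2% ± 0.348 after heat shock (SD, n = 3). TUBA4A went from 2.19% ± 0.39 to 19.2% ± 2.63 and from 4.12% ± 0.302 to 16.1% ± 0.863. TUBA1A went from 1.45% ± 0.0305 to 8.15% ± 1.12, and from 2.52% ± 0.208 to 10.1% ± 0.43. In neither experiment did these shares overlap between siJMJD6 and siNT libraries. After heat shock the share of TUBA1C also rose, from 42.6% ± 2.86 in siNT to 47.6% ± 0.583 in siJMJD6 cells, without overlap. Under MG132 the TUBA1C share did not rise. In HSF1 KO cells TUBA1A made up 0.869% ± 0.325, TUBA4A 2.99% ± 0.318 and TUBA1B 56.8% ± 3.74. The α-tubulin sum (mean ± SD) was 28817 ± 3962 in siNT and 16212 ± 219 in siJMJD6 cells under MG132, and 17285 ± 3081 and 15875 ± 834 after heat shock, where the ranges overlapped. So a lower share of TUBA1B and higher shares of TUBA4A and TUBA1A were present in both tables. A lower total stood clear of the siNT range only under MG132.

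**Figure D3:**
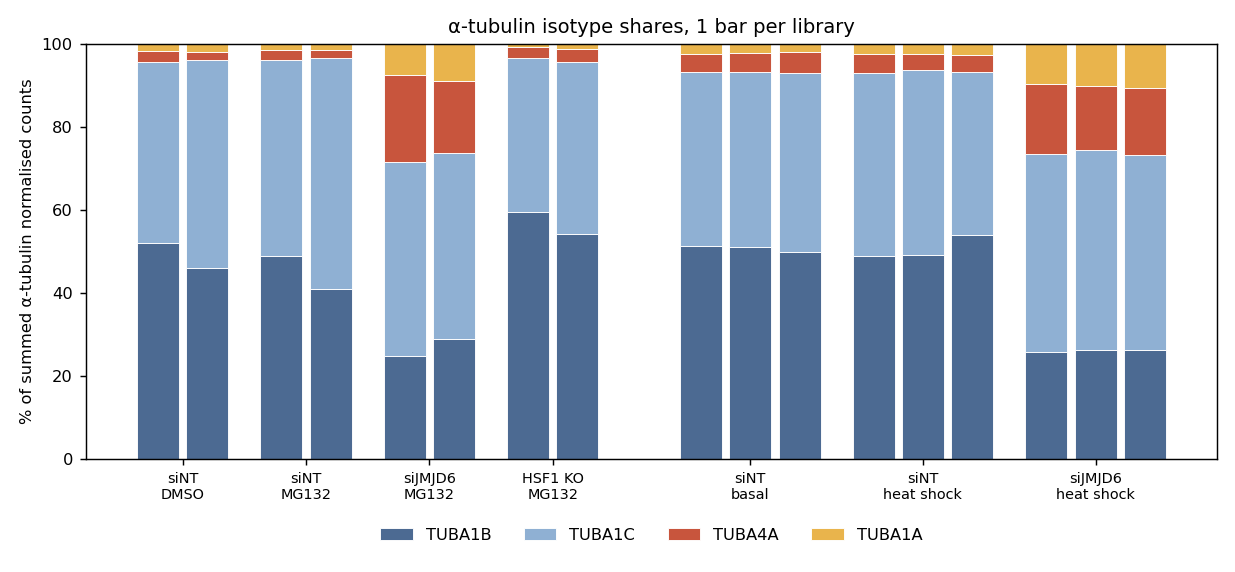
Share of the summed α-tubulin normalised counts held by each isotype, in percent, with 1 bar per library from 0 to 100. TUBA1B holds 26.2% and 26.9% on average in the siJMJD6 groups and 45.0% or more in all other groups. The TUBA4A and TUBA1A segments widen in both siJMJD6 groups, and that of TUBA1C widens after heat shock only.

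β-tubulins moved by isotype too. TUBB, the main β-tubulin, has no digit in its symbol and so is no member; it held 87.6% of all β-tubulin counts in siNT cells under MG132 and 78.2% after heat shock. TUBB3 (chr16:89921392-89938761), the isotype best known from neurons and from tumours that resist taxanes, was at 66.0 and 86.0 in siNT, 196 and 229 in siJMJD6 and 242 and 215 in HSF1 KO libraries under MG132. The siJMJD6 and knockout libraries shared 1 range, above both siNT libraries. It rose by 1.48 ± 0.28 with siJMJD6 (adjusted p = 0.00559) and by 1.58 ± 0.28 in the knockout (adjusted p = 0.0145), and the 2 differed by 0.10 ± 0.28 (adjusted p = 0.824). Both rises are measured against the same siNT libraries, and both calls were lost without siNT MG132 replicate 1, that of the knockout also without either HSF1 KO library. After heat shock TUBB3 was at 123, 137 and 115 in siNT and 375, 356 and 368 in siJMJD6 libraries, which did not overlap (1.55 ± 0.12, 2.92-fold, adjusted p = 1.29e-12).

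The twin genes TUBB2A and TUBB2B, 98.1% identical in coding sequence but with no shared run above 11 bases near the transcript end, moved in opposite directions. TUBB2A was at 80.4 and 82.2 in siNT against 155 and 183 with siJMJD6 under MG132 (1.04 ± 0.27, adjusted p = 0.0251) and at 64.6, 65.7 and 90.6 in siNT against 156, 166 and 168 with siJMJD6 after heat shock (1.15 ± 0.17, adjusted p = 6.92e-07). TUBB2B was at 201 and 358 in siNT against 24.5 and 148 with siJMJD6 under MG132 (-2.13 ± 0.60, adjusted p = 0.0356) and at 262, 363 and 349 in siNT against 196, 191 and 239 with siJMJD6 after heat shock (-0.63 ± 0.12, adjusted p = 3.28e-05). Groups were apart for both genes in both tables, but the siJMJD6 libraries of TUBB2B lay far from each other under MG132, and its difference was -0.85 without siJMJD6 MG132 replicate 1 and -3.40 without replicate 2. Its MG132 call was lost without siJMJD6 MG132 replicate 1 or any 1 of the siNT MG132 and HSF1 KO libraries, and that of TUBB2A without either siNT MG132 library or siJMJD6 MG132 replicate 2. TUBB2B was also lower in HSF1 KO than in siNT cells under MG132 (-1.68), not called in the main fit but called without either siJMJD6 MG132 library. With TUBB counted, TUBB2B held 0.427% to 0.741% of β-tubulin counts in HSF1 KO and 1.53% to 2.11% in siNT libraries under MG132. TUBB4B differed by -0.23 ± 0.24 under MG132 and was called higher after heat shock (0.23 ± 0.08, adjusted p = 0.0275), where the groups overlapped and leaving out siNT heat shock replicate 1 or 2 or siJMJD6 heat shock replicate 2 or 3 ended the call. TUBB6 and the γ-tubulin TUBG1, which seeds microtubules, were called in no comparison, with differences from -0.60 to 0.26 and from -0.38 to 0.09. Some alternative fits called them. Among these, TMM scaling called TUBB6 for heat shock (-0.37) and with siJMJD6 after heat shock (0.27). TUBG1 was called with siJMJD6 after heat shock without siNT heat shock replicate 1 (-0.49). TUBB4A and TUBG2 were too low to test. TUBB2A shared unbroken runs of 115 bases with TUBB4B and 46 with TUBB3 in the last 400 of the transcript, so tags there may be split between them. TUBB itself was at 13169 in siNT and 7446 in siJMJD6 cells on average under MG132 and fell by 0.82 ± 0.24 (adjusted p = 0.0433), and after heat shock differed by -0.15 ± 0.07 (adjusted p = 0.0635).

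The 2 cytoplasmic actins, which form most filaments outside muscle, differed little. ACTG1 (chr17:81509971-81523847) was at 5674 and 6535 in siNT, 4361 and 5239 in siJMJD6 and 8523 and 8464 in HSF1 KO libraries under MG132. The siJMJD6 libraries were lowest and the knockout libraries highest, with no overlap. ACTG1 was higher in HSF1 KO than in siJMJD6 cells (0.83 ± 0.23, adjusted p = 0.0218), a call lost without siJMJD6 MG132 replicate 1 or either HSF1 KO library, and neither group passed against siNT (-0.35 ± 0.23, adjusted p = 0.347, and 0.48 ± 0.23, adjusted p = 0.407). After heat shock it went from 4497, 5028 and 6206 to 6636, 6554 and 6901, with siJMJD6 above siNT, and rose by 0.37 ± 0.08 (adjusted p = 0.000529). ACTB (chr7:5527147-5563784) was called in no comparison of the main fit. ACTB was called in HSF1 KO against siJMJD6 with quantile normalisation (0.79) and without siJMJD6 MG132 replicate 2 (0.76). It differed by -0.28 ± 0.23 and 0.03 ± 0.08 with siJMJD6 under MG132 and after heat shock, and by 0.31 ± 0.23 in HSF1 KO against siNT and 0.59 ± 0.23 against siJMJD6 cells (adjusted p = 0.46, 0.788, 0.626 and 0.085). ACTB held fewer tags than ACTG1 in every library, with 1086 and 904 in siNT cells under MG132.

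CFL1 (chr11:65823022-65862026), which severs old filaments, was low with siJMJD6. Its values were 1358, 1371 and 1373 in siNT and 873, 904 and 875 in siJMJD6 cells after heat shock, tight within each group and far apart (-0.63 ± 0.07, adjusted p = 5.74e-09). Under MG132 they were 976 and 997 in siNT, 652 and 761 in siJMJD6 and 1037 and 1242 in HSF1 KO cells, also without overlap, with siJMJD6 lowest. Against siNT the difference did not pass (-0.49 ± 0.22, adjusted p = 0.159; 0.20 ± 0.22 for HSF1 KO, adjusted p = 0.768), and HSF1 KO was higher than siJMJD6 (0.69 ± 0.22, adjusted p = 0.0388), a call lost in 9 of 13 alternative fits. PFN1 (chr17:4945652-4949061) was at 1799, 1956 and 1675 in siNT and 1548, 1311 and 1457 in siJMJD6 cells after heat shock and fell by 0.33 ± 0.09 (adjusted p = 0.003). Under MG132 its siJMJD6 libraries, at 295 and 980.4, lay on both sides of siNT, at 747 and 541 (-0.24 ± 0.42, adjusted p = 0.745), and HSF1 KO differed from siNT by 0.23 ± 0.42 (adjusted p = 0.879) and from siJMJD6 by 0.47 ± 0.42 (adjusted p = 0.446). Without siJMJD6 MG132 replicate 2, PFN1 was called with siJMJD6 at -1.11 and in HSF1 KO against siJMJD6 at 1.34.

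Within the Arp2/3 complex, which nucleates branches, subunits of 1 assembly moved apart. ARPC1A and ARPC1B, neighbours on chromosome 7 (chr7:99325910-99366262 and chr7:99374249-99394816) that code for alternative versions of the same subunit, both fell with siJMJD6. ARPC1A went from 383 and 387 to 232 and 166 under MG132 and from 614, 731 and 728 to 321, 348 and 313 after heat shock. ARPC1B went from 381 and 263 to 132 and 149.5 and from 510.1, 563 and 558 to 319, 328 and 373. In neither gene did the groups overlap. ARPC1A differed by -0.97 ± 0.24 (adjusted p = 0.0221) and -1.07 ± 0.09 (adjusted p = 8.94e-12), and ARPC1B by -1.17 ± 0.25 (adjusted p = 0.0105) and -0.68 ± 0.09 (adjusted p = 2.09e-07). Both calls under MG132 were lost without siNT MG132 replicate 1, and that of ARPC1A also without siNT MG132 or siJMJD6 MG132 replicate 2. A readthrough locus, AC004922.1, spans both genes on the same strand and has no row in either table of the study, so it could not be examined.

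ARPC4 (chr3:9792495-9807726), a core subunit, rose as ARPC1A and ARPC1B fell. It was at 242 and 296 in siNT and 519 and 441 in siJMJD6 cells under MG132 (0.84 ± 0.25, adjusted p = 0.0429), and at 252, 272 and 245 in siNT against 386, 375 and 402 with siJMJD6 after heat shock (0.60 ± 0.10, adjusted p = 1.01e-05), with groups apart in both. The MG132 call was lost in 10 of 14 alternative fits, among them those without siNT MG132 replicate 1 or 2 and without siJMJD6 MG132 replicate 1. None of the 3 was called in HSF1 KO against siNT cells (-0.53 ± 0.25, 0.38 ± 0.24 and 0.03 ± 0.25 for ARPC4, ARPC1A and ARPC1B, adjusted p = 0.394, 0.56 and 0.976). ARPC4 was at 182 and 187 there, below siJMJD6 by a log2 difference of -1.37 ± 0.25 (adjusted p = 0.00264), and ARPC1A and ARPC1B were above siJMJD6 by 1.35 ± 0.24 (adjusted p = 0.00258) and 1.20 ± 0.25 (adjusted p = 0.00588). ARPC3 was at 584 and 711 in HSF1 KO, 321 and 301 in siNT and 352 and 329.8 in siJMJD6 libraries, higher in the knockout than in both (1.05 ± 0.24, adjusted p = 0.0498, and 0.92 ± 0.24, adjusted p = 0.0163). The first of these calls was lost in 9 of 13 alternative fits, among them those without any 1 of the DMSO, siNT MG132 or HSF1 KO libraries, and the second without either HSF1 KO library. ARPC5L rose after heat shock with siJMJD6 (0.38 ± 0.11, adjusted p = 0.00448), and ARPC2 was lower in HSF1 KO than in siJMJD6 cells (-0.74 ± 0.24, adjusted p = 0.0421), a call lost in 9 of 13 alternative fits. The call of ARPC1B in the same comparison was lost without HSF1 KO replicate 1. The complex's actin-like core, ACTR2 and ACTR3, and ARPC5 were called in no comparison. Without siJMJD6 MG132 replicate 2, ACTR3 was called in HSF1 KO against siJMJD6 (1.41).

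Of the tropomyosins and α-actinins, TPM1, TPM3, TPM4, ACTN1 and ACTN4 rose with siJMJD6 after heat shock. TPM4 (chr19:16067021-16103005), a tropomyosin of stress fibres, was at 209.5, 239.5 and 193 in siNT and 595, 564 and 586 in siJMJD6 cells, far apart (1.44 ± 0.10, 2.72-fold, adjusted p = 8.08e-14). Under MG132 the same contrast gave 98.9 and 263 in siNT against 275 and 648 with siJMJD6, again apart but with libraries of 1 group more than 2-fold from each other (1.38 ± 0.48, adjusted p = 0.0726). HSF1 KO libraries were at 81.1 and 107, below siJMJD6 (-2.17 ± 0.48, adjusted p = 0.00756, not called without HSF1 KO replicate 1). TPM1 was at 47.3, 33.8 and 46.9 in siNT against 101, 73.3 and 76.5 with siJMJD6 (0.96 ± 0.21, adjusted p = 0.000305) and TPM3 at 220.2, 237 and 219 in siNT against 319, 361 and 337 with siJMJD6 (0.59 ± 0.11, adjusted p = 3.95e-05) after heat shock, both without overlap. ACTN4 (chr19:38647649-38731583), which crosslinks filaments, went from 739, 915 and 872 to 1479, 1373 and 1540.0 (0.80 ± 0.08, adjusted p = 6.28e-10), and ACTN1 rose by 0.34 ± 0.08 (adjusted p = 0.000848). Under MG132 none of these 5 was called with siJMJD6 against siNT in the main fit. A fit with the replicate number as a block called TPM1 (1.86) and TPM4 (1.38) under MG132. ACTN4 shows the spread there, at 1092 and 2048 in siNT and 1056 and 3531 in siJMJD6 libraries (0.37 ± 0.45, adjusted p = 0.634); it, TPM4, ACTN1 and MYH9 were higher in replicate 2 than in replicate 1 of all 3 siRNA groups of that table, and without siJMJD6 MG132 replicate 1 ACTN4 and TPM4 were called at 1.24 and 2.00. TPM4 was also called without siNT MG132 replicate 2 (2.08), and TPM1 (1.86 ± 0.61, adjusted p = 0.0587) without either DMSO library or with 10 in place of 1 as the added count (1.35). TPM1 was also higher in HSF1 KO than in siNT cells (1.37) and was not called there. TPM3 was higher in HSF1 KO than in siJMJD6 cells (0.86 ± 0.23, adjusted p = 0.021), a call lost without siJMJD6 MG132 replicate 1 or either HSF1 KO library. TPM2, at no more than 15.9 normalised counts, and TAGLN2 were called in no comparison, and TAGLN2, at 6443 and 5549 in siNT, 12905 and 8165 in siJMJD6 and 10350.3 and 9520.4 in HSF1 KO cells under MG132, gave 0.78 ± 0.26 (adjusted p = 0.0651) with siJMJD6. It was called there without siJMJD6 MG132 replicate 2 (1.11), with the replicate block (0.78) and with quantile normalisation (1.08), which also called TAGLN2 in HSF1 KO against siNT (0.84). After heat shock TAGLN2 was called with siJMJD6 by TMM scaling (0.17), quantile normalisation (0.14) and without siNT heat shock replicate 2 (0.19). TPM2 was called with siJMJD6 after heat shock without siNT heat shock replicate 3 (1.31). TAGLN, the smooth muscle form, never passed 5.23.

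Promoters of 37 of the genes, in 59 windows, were found in the RefSeq table (GRCh38.p14). ACTB, ARPC1B, MYL9 and TAGLN had no window there and were not searched. So it is not known here whether ACTB, tested and called higher in no comparison, holds a box. The CArG box that SRF binds was searched on both strands in the 250 bases before each start, and 4 of the 59 windows held it (6.78%) against 1.16% of 35116 windows of all genes. The 3 in tested genes are shown because each was called higher with siJMJD6 after heat shock, as were 14 of the 35 genes and 21.4% of all, though none was called under MG132, where ACTG1 was lower in both siJMJD6 libraries. They are given 5′ to 3′ on the gene's strand with the box in capitals and 21 bases on each side, beginning 94, 171 and 173 bases before the start; ACTN1 and TPM4 have further starts without a box.
ACTG1 promoter: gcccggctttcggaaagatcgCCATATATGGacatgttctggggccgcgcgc
ACTN1 promoter: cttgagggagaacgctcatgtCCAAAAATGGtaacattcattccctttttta
TPM4 promoter: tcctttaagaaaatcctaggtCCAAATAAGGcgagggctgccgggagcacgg
They lie at chr17:81512863-81512914, chr14:68977707-68977758 and chr19:16067344-16067395, and the remaining box belonged to TUBG2, too low to test. The heat shock element GAANNTTC, a pair of facing HSF1 repeats, was present in 2 windows of 1 gene, TUBA1C (3.39% of windows, against 5.78% of all), at the same place. A match describes letters, and binding was not measured.

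The myosin light chain MYL6 (chr12:56158161-56163496), the main essential light chain outside muscle, rose with siJMJD6. It was at 397 and 669 in siNT, 1227 and 1522 in siJMJD6 and 591 and 532 in HSF1 KO libraries under MG132, and at 746, 823 and 753 in siNT against 1328, 1393 and 1455 with siJMJD6 after heat shock. The siJMJD6 libraries stood above all others in both tables. The differences were 1.41 ± 0.27 (adjusted p = 0.00613) and 0.85 ± 0.08 (adjusted p = 1.15e-10), and HSF1 KO against siJMJD6 gave -1.28 ± 0.27 (adjusted p = 0.00626); the MG132 call against siNT was lost without siNT MG132 replicate 1 and the last without HSF1 KO replicate 2. SMARCC2, which overlaps the end of MYL6 on the other strand, went the opposite way after heat shock, with means of 121 in siNT and 65.4 in siJMJD6 cells (-0.87 ± 0.16, adjusted p = 3.72e-05), and so did the neighbouring light chain gene MYL6B, with 152 and 77.2 (-0.97 ± 0.13, adjusted p = 2.05e-07). The regulatory light chains MYL12A and MYL12B, which switch the motor on when phosphorylated, were called in no comparison, with siJMJD6 differences of 0.72 ± 0.44 and 0.59 ± 0.30 under MG132 and 0.11 ± 0.11 and 0.03 ± 0.08 after heat shock. Without siJMJD6 MG132 replicate 1, MYL12A was called with siJMJD6 under MG132 (1.43) and in HSF1 KO against siJMJD6 (-1.34). The 2 genes shared a run of 55 bases near the transcript end. MYL9 stayed at or below 3.10.

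Of the 2 non-muscle myosin heavy chains, MYH9 was called in no comparison and MYH10 had its lowest values in HSF1 KO cells. MYH10 (chr17:8474205-8630761) was at 22.6 and 21.8 in siNT, 12.8 and 11.1 in siJMJD6 and 3.50 and 0.0287 normalised counts in HSF1 KO libraries under MG132. The 3 groups were apart, but the knockout values amount to a few tags or none. The siJMJD6 difference from siNT was not called (-0.85 ± 0.65, adjusted p = 0.434). HSF1 KO differed from siNT by -3.43 ± 0.65 (adjusted p = 0.0214) and from siJMJD6 by -2.59 ± 0.65 (adjusted p = 0.0148), and these sizes depend on the added count: with 10 in place of 1 they were -1.47 and -0.91. The first was no longer called without either siNT MG132 replicate or without HSF1 KO replicate 2, nor with no filter on low values (adjusted p = 0.16), and the second was not called without siJMJD6 MG132 replicate 1 or HSF1 KO replicate 2. After heat shock MYH10 was at 25.1, 40.6 and 30.7 in siNT and 14.9, 17.1 and 11.7 in siJMJD6 libraries, apart, and fell by 1.08 ± 0.26 (adjusted p = 0.00106). MYH9, at 298, 264 and 282 in siNT against 338, 299.6 and 324 with siJMJD6 after heat shock, gave 0.19 ± 0.10 (adjusted p = 0.127).

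**Figure D4:**
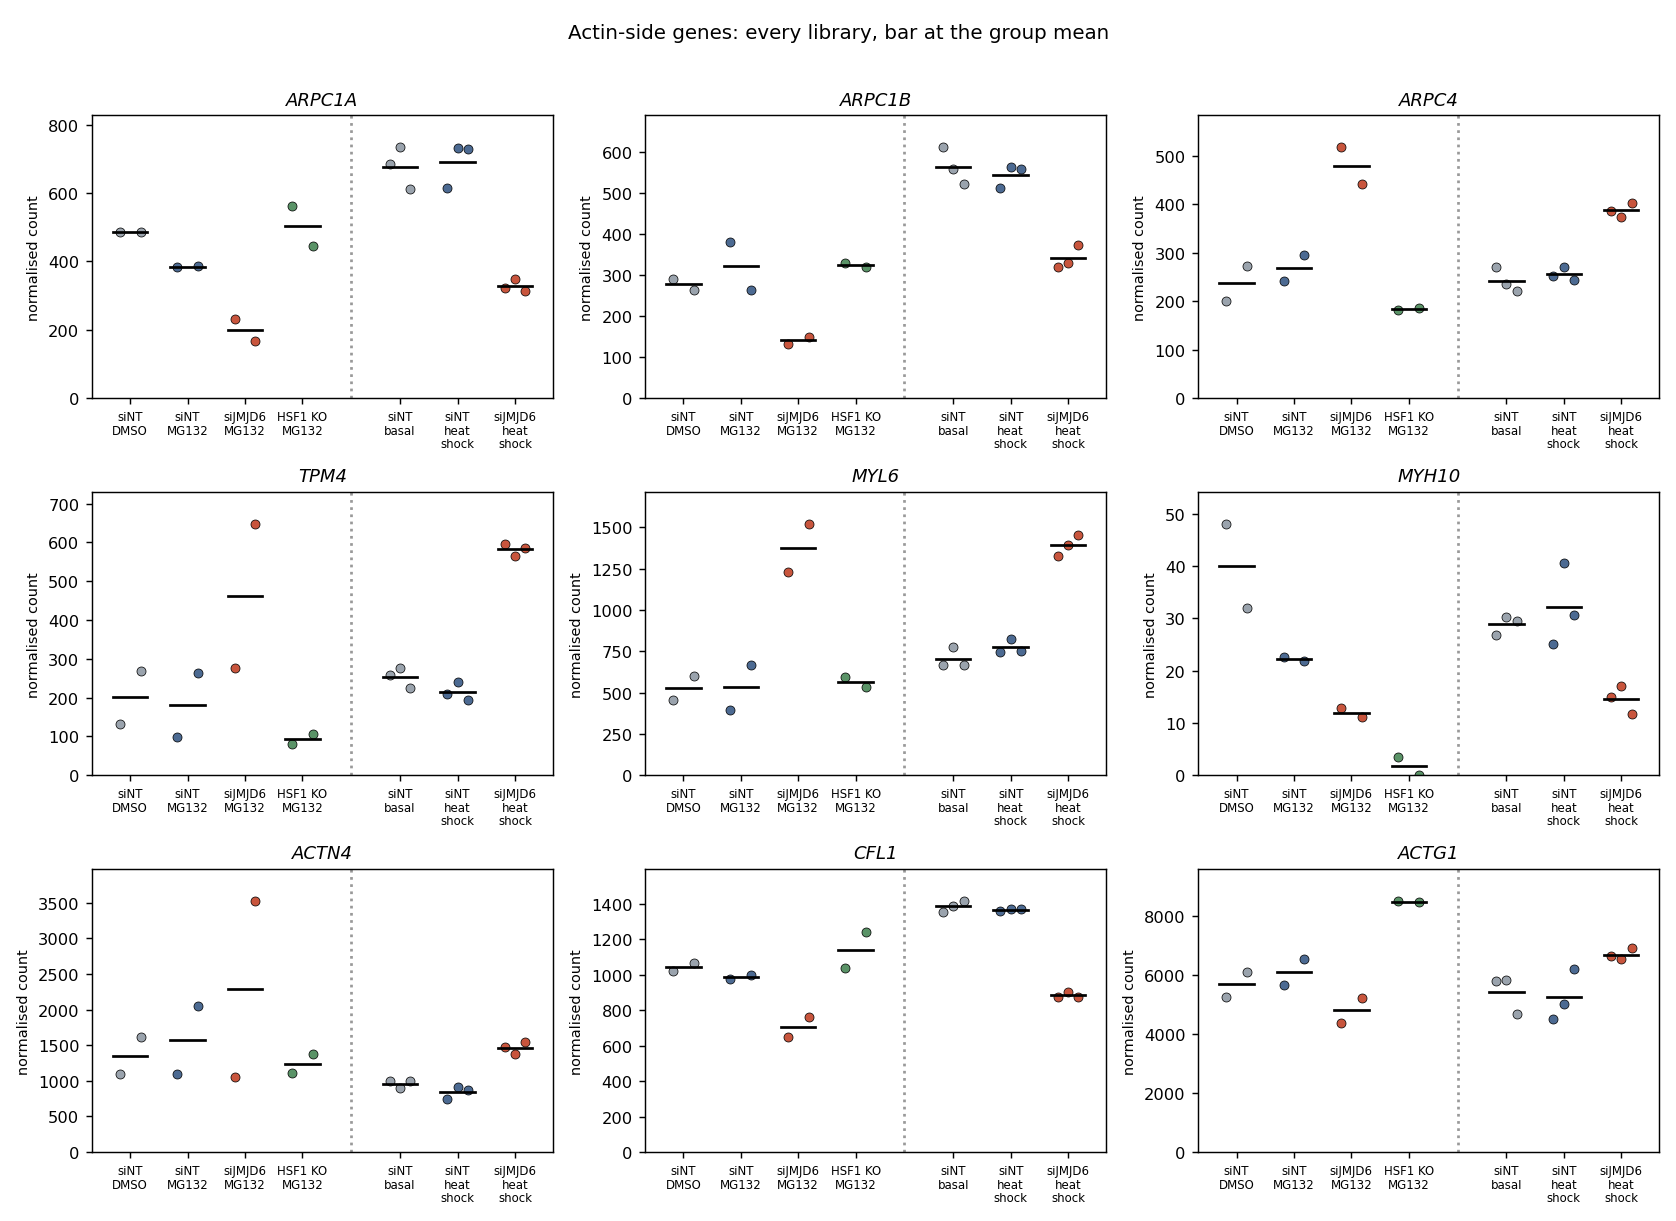
Normalised counts (y axis, from 0, scaled per gene) of 9 genes of the actin system in every library (points) with the group mean (bar), MG132 table left of the dotted line and heat shock table right. ARPC1A, ARPC1B and CFL1 are low and ARPC4 and MYL6 high in both siJMJD6 groups, TPM4 and ACTN4 spread widely between the siJMJD6 libraries under MG132, and MYH10 is near 0 in HSF1 KO libraries.

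In HSF1 KO cells 4 of 35 genes were called against siNT under MG132 (11.4%), TUBB3 and ARPC3 higher and TUBA1A and MYH10 lower, where 1.28% of all tested genes were called, 0.276% higher and 1% lower. An unadjusted p under 0.05 was found for 10 genes, against 12.8% of all, and groups that did not overlap for 20 (57.1%), against 45.3% of all. The count was 0 without siNT MG132 replicate 1 or HSF1 KO replicate 2, 1 without siNT MG132 replicate 2 or HSF1 KO replicate 1, and 2 without either DMSO library. Directly against siJMJD6, 14 of 35 were called (40%), 7 higher and 7 lower in the knockout, where 20.8% of all tested genes were called, 11.1% higher and 9.69% lower. There 18 genes had an unadjusted p under 0.05, against 35% of all, and 21 (60%) had groups that did not overlap, against 61.1% of all. The higher ones were TUBA1B, ARPC1A, ARPC1B, ARPC3, ACTG1, CFL1 and TPM3, and the lower ones TUBA1A, TUBA4A, ARPC4, ARPC2, MYL6, TPM4 and MYH10. This count was 7 without either HSF1 KO library. TUBA1A, TUBA1B, TUBA4A, ARPC1A and ARPC4 were called in all 13 alternative fits of that comparison.

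The siJMJD6 comparisons of the 2 tables share no library, so they can be set beside each other. Of the 11 genes called under MG132, 10 were also called after heat shock (90.9% of the former and 47.6% of the 21 called after heat shock), all in the same direction, 6 higher and 4 lower. These were TUBA4A, TUBA1A, TUBB3, TUBB2A, MYL6 and ARPC4, which rose, and TUBA1B, TUBB2B, ARPC1A and ARPC1B, which fell. TUBA1C was the exception. Over all tested genes the like shares were 82.3% and 24.2%. The sign was the same for 23 of 35 genes (65.7%) and for 74% of all 9379 genes tested in both tables, a smaller share in these genes than in all. The correlation of the log2 differences between the tables was higher in these genes, at 0.798 against 0.701 in all (Pearson) and 0.722 against 0.66 (Spearman). The count under MG132 was 4 without siNT MG132 replicate 1 and 7 without siNT MG132 replicate 2, and TUBA1A, TUBA1B and TUBA4A were called in all 14 alternative fits. After heat shock 20 of the 21 calls held in all 15 alternative fits, TUBB4B being the exception.

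**Figure D5:**
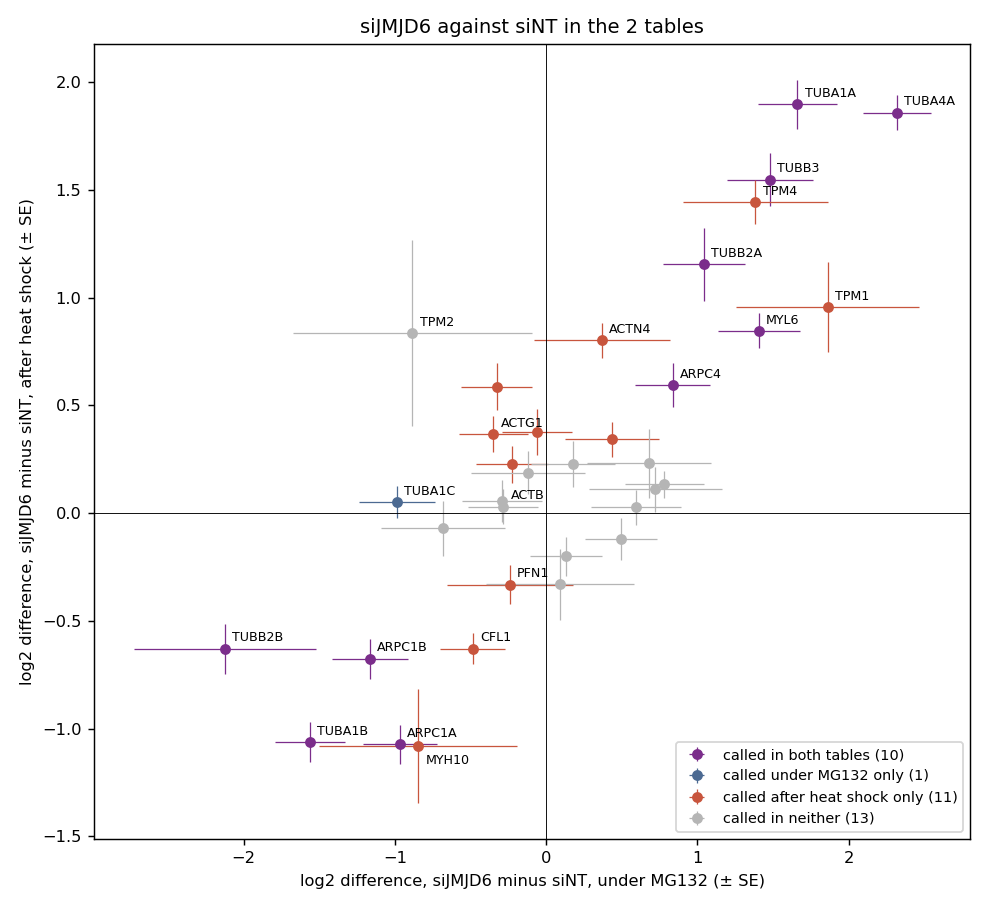
Log2 difference of siJMJD6 minus siNT under MG132 (x axis) and after heat shock (y axis) for the 35 tested genes, with SE bars, coloured by the tables in which the gene was called. The 10 genes called in both tables lie at the lower left or upper right, with TUBA4A and TUBA1A farthest up and right.

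Other genes of the cytoskeleton, in 5 lists from general knowledge, show what surrounded these changes. Of 26 tested genes for actin crosslinking and adhesion, 5 rose and none fell with siJMJD6 under MG132, and 12 rose and 5 fell after heat shock. That is 19.2% and 65.4% called, beside 13.6% and 46.4% of all tested genes (medians 0.37 and 0.12, beside -0.05 and -0.03). FSCN1, the fascin that bundles filaments in protrusions, rose from means of 876 to 3364 under MG132 (1.94 ± 0.21, adjusted p = 0.000155) and from 657 to 2016 after heat shock (1.62 ± 0.08, adjusted p = 7.78e-19). LASP1 rose by 1.57 ± 0.25 and 1.03 ± 0.11, and the filamin FLNA by 1.25 ± 0.29 and 1.12 ± 0.08. PDLIM7 rose by 1.30 ± 0.37 under MG132, and the adhesion adaptor PXN fell by 1.01 ± 0.09 after heat shock.

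Of 35 tested microtubule regulators, none rose and 3 fell with siJMJD6 under MG132, and 3 rose and 14 fell after heat shock (medians -0.35 and -0.29). The share called was 8.57% under MG132, below the 13.6% of all genes, and 48.6% after heat shock, near their 46.4%. The list includes TUBB, already described, as 1 of the 3 that fell. MZT1, a small protein of the γ-tubulin ring complex, fell in both tables (-2.97 ± 0.36, adjusted p = 0.000362, and -1.80 ± 0.18, adjusted p = 1.96e-10), as did ARL2, which works with the tubulin folding cofactors (-1.41 ± 0.25, adjusted p = 0.00328, and -1.87 ± 0.13, adjusted p = 5.83e-14). After heat shock the cofactor TBCC rose by 1.19 ± 0.13 and the plus-end protein MAPRE1 fell by 0.78 ± 0.11. Among 26 tested microtubule motor genes, 2 rose and none fell under MG132, and 4 rose and 9 fell after heat shock (7.69% and 50% called, beside 13.6% and 46.4% of all). The kinesin KIF3B rose by 1.20 ± 0.27 and 1.66 ± 0.12 and the dynein light chain DYNLL1 by 0.75 ± 0.22 under MG132, and KIF5B (-1.46 ± 0.16) and the dynactin genes ACTR1A (-0.89 ± 0.19) and DCTN4 (-0.94 ± 0.25) fell after heat shock. Of the actin assembly regulators, 2 rose and 2 fell of 37 under MG132, and 7 rose and 10 fell of 36 after heat shock (10.8% and 47.2%, near the shares of all genes). The formin DIAPH2 fell from means of 40.6 to 8.03 under MG132 and from 98.0 to 15.2 after heat shock; under MG132 WASL fell by 1.75 ± 0.44, and the capping proteins GSN and CAPG rose by 1.86 ± 0.44 and 1.28 ± 0.35; after heat shock the cofilin phosphatase SSH1 (-1.84 ± 0.15), VASP (-1.17 ± 0.12) and TMSB4X, which holds actin monomers (-0.68 ± 0.09), fell. All differences named here without a p had an adjusted p under 0.05.

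The list of SRF, its partners and their targets had few expressed genes. With siJMJD6 after heat shock, where 46.4% of all genes were called, 3 of 6 tested rose and 1 fell: CTGF, with means of 35.4 in siNT and 76.0 in siJMJD6 cells (1.07 ± 0.21, adjusted p = 6.52e-05), CYR61 (0.68 ± 0.14, adjusted p = 0.000114), SRF (0.45 ± 0.13, adjusted p = 0.00526) and, lower, MKL2 (-1.07 ± 0.44, adjusted p = 0.0438). Under MG132 none of 4 was called (CTGF 1.96 ± 0.63, adjusted p = 0.0547; CYR61 0.27 ± 0.43, adjusted p = 0.727). In HSF1 KO against siNT cells CTGF was the only gene of these 5 lists called, at means of 142 and 18.2 (2.82 ± 0.63, adjusted p = 0.0477).

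Directly against siJMJD6, HSF1 KO cells had 7 of 35 microtubule regulators higher (20%, beside 20.8% of all genes called), among them TUBB (0.81 ± 0.24), MZT1 (3.38 ± 0.36), ARL2 (1.07 ± 0.25), TUBGCP4 (1.17 ± 0.33) and the tyrosine ligase TTL (0.88 ± 0.26), and none lower. They had 9 of 26 crosslinking and adhesion genes lower (34.6%), among them FSCN1 (-2.02 ± 0.21), VCL (-1.28 ± 0.23), LASP1 (-1.34 ± 0.25) and CNN2 (-1.72 ± 0.35), and none higher. Of the motors only KIF5B was called (0.92 ± 0.30, higher), and of the actin assembly regulators DIAPH2 (3.46 ± 0.37) and TWF1 (1.32 ± 0.44), both higher. The stresses alone moved few of these genes. MG132 against DMSO gave no call in the 5 lists by limma, with 2 microtubule regulators, 1 actin assembly regulator and 2 crosslinking and adhesion genes at an unadjusted p under 0.05, the lowest adjusted p being that of LIMA1 (-1.09 ± 0.35, adjusted p = 0.558). Heat shock raised TES (0.65 ± 0.12, adjusted p = 0.000304), and no other gene of these lists was called.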

How the data were processed

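The submitters' labels give QuantSeq FWD libraries from 100 ng of RNA, and their processing notes name FastQC 0.11.2, STAR 2.6.0, HTSeq and hg38. The authors deposited 2 tables of normalised counts, a signal that is not whole-numbered, for 8 MG132 and 9 heat shock libraries, and each table was tested alone because they were normalised separately. The sources used here do not give the annotation, strand setting, filter or scaling, and read depth could not be recovered from these values. Totals of normalised counts therefore do not give each library's sequencing precision, and the SE between libraries stands for it.

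Genes with at least 10 normalised counts in at least 2 (MG132) or 3 (heat shock) libraries were fitted as log2(value + 1) with limma 3.58.1 in R 4.3.3, all groups of a table in 1 fit, with p-values adjusted by Benjamini-Hochberg over all tested genes. The code was tested on simulated data. Sequences and promoters were read with Python 3.11.15 and Biopython 1.88. Groups came from the labels. Alternatives were a pseudocount of 10, no filter, TMM and quantile scaling, the 2 compared groups alone, a replicate block and leaving out each library. Named were ACTB, ACTG1, TUBA1B, CFL1 and PFN1 in every comparison and up to 10 called genes by adjusted p; others named were chosen after their values were seen. The members and lists were chosen with earlier results of these data known. Results that need items withheld for evaluation are not reported here.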

Additional observations from a re-analysis of the deposited data

Results flagged for a closer look

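For 4 genes the siJMJD6 and siNT libraries separated in opposite directions in the 2 tables, and the difference between the tables was not tested. Of all tested genes, 53.1% under MG132 and 54% after heat shock had siJMJD6 and siNT groups that did not overlap. The share of all genes that separated in opposite directions was not counted, so these genes cannot be set against it. The siJMJD6 difference of ACTG1 was -0.35 under MG132 and 0.37 after heat shock, -0.71 apart on the log2 scale. For TPM3 it was -0.33 and 0.59, -0.92 apart. For ARPC5L it was -0.06 and 0.38, -0.44 apart, and for ARPC3 0.13 and -0.20, 0.33 apart. Of these 8 differences, those of ACTG1, TPM3 and ARPC5L after heat shock were called and the others were not.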

How the results depend on the processing

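With siJMJD6 under MG132, 11 genes were called, 7 with no filter on low values and 4 to 12 when each library was left out. In HSF1 KO against siNT there were 4, 0 with no filter and 0 to 5 with a library left out, and against siJMJD6 14, and 7 to 17. Heat shock gave 1, 2 with TMM scaling (TUBB6 added) and 1 to 4 with a library left out, siJMJD6 after heat shock 21, and 20 to 23, and MG132 against DMSO 0 throughout. Directions reversed only for named genes that were not called: with quantile normalisation, ACTG1 (-0.22) and TUBA1B (-0.34) for MG132 against DMSO and TUBA1B in HSF1 KO against siNT (0.091). With a library left out, reversals were -0.0067 (range to 0.21) for ACTG1 for MG132 against DMSO, 0.089 (range from -0.19) for TUBA1B in HSF1 KO against siNT, 0.62 (range from -1.11) for PFN1 with siJMJD6 and -0.39 (range to 1.34) in HSF1 KO against siJMJD6, 0.012 to 0.043 (range from -0.12) for ACTB and 0.0495 (range from -0.18) for ACTG1 for heat shock, and -0.034 to -0.0036 (range to 0.13) for ACTB with siJMJD6 after heat shock. The cause was not tested. The TUBA1C difference under MG132 was -0.61 with quantile normalisation. Same-numbered libraries correlated at 0.0447 to 0.368 in the MG132 and -0.0348 to 0.0943 in the heat shock table. DMSO libraries correlated with same-numbered siNT MG132 libraries at 0.368 and with siJMJD6 MG132 libraries at 0.318. Same-numbered siNT MG132 and siJMJD6 MG132 libraries correlated at 0.0447. From replicate 1 to replicate 2, 54.3% of members and 35% of all tested genes moved the same way in every siRNA group there. A shift shared by same-numbered libraries may thus be present in the MG132 table, and its source was not tested. The main fit did not take numbers as pairs. With the replicate block the counts were 0, 14, 1 and 21 for MG132, siJMJD6 under MG132, heat shock and siJMJD6 after heat shock. That block added TAGLN2 (0.78), TPM1 (1.86) and TPM4 (1.38) with siJMJD6 under MG132. For the alternative fits the share of all tested genes called is not given, here or above. Changes in these counts therefore need not be particular to these genes. No paired analysis was possible for HSF1 KO because its libraries carry letters. With 2 libraries a group, differences as large as 1.86 (TPM1 with siJMJD6) were left uncalled, against a median SE of 0.394.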
